A study of Homo sapiens with 6 samples.

Results

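The transcriptome of SW480 cells carrying a control short hairpin RNA (shCtrl) is described here from 3 libraries of 6 in the series, chosen by their sample titles. SW480 is an established line of human colon adenocarcinoma cells. The shCtrl cells received a nonsilencing hairpin by lentivirus and were selected with puromycin, as were the cells of the other group, which carried a hairpin against RBM39 (shRBM39) and are not used here. The labels call the genotype WT, although the cells hold an integrated hairpin. The methods speak of stable clonal lines, so the libraries may stand for the descendants of few cells. Cells grew in medium with 10% serum, and stranded mRNA libraries with unique identifiers were made from their total RNA. The study describes the 3 libraries of a group as independent replicate experiments, while the labels do not say whether they came from separate cultures. If they did not, the SDs and p-values below measure only technical spread. SW480 cells are generally described as carrying EGFR and CD44, and both genes were close to 0 here, as given with their values below. The identity of the cells was not tested, and SW480 is the name on the labels throughout.

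In the colon, stem cells at the base of the crypt are kept dividing by Wnt signals, which stabilise beta-catenin and let it act with TCF factors on its target genes. Daughter cells that leave the base become absorptive colonocytes or secretory cells under transcription factors such as CDX2, HNF4A and ATOH1. Most colon cancers lose APC, a scaffold of the complex that degrades beta-catenin, and many also carry an activated RAS gene or loss of TGF-beta signalling. SW480 is a widely used model of this kind.

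The 3 libraries held 19535687, 20226176 and 19431099 counts for replicates 1, 2 and 3. A level is given below as RPKM, a gene's reads divided by the length of its merged exons in kilobases and scaled to the depth of the library, so that genes of different length can be compared. A gene is called expressed where the RPKM was at least 1 in each library, and silent where all 3 libraries had 0 counts. Together, 0 among the 59192962 counts of the 3 libraries allows a level of up to 0.0507 CPM, the same scale without the division by length, taken as 3 counts and covering counting error only. Of 19601 protein-coding genes, 10642 were expressed, which is 54.3% of them, and 3188 were silent, which is 16.3%. A further 5567 had some counts but a mean RPKM under 1. Together, the silent and low genes took 0.804% of all counts.

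The 344 genes with a mean RPKM of at least 100 made up 1.75% of the protein-coding genes and took 35% of the counts. Another 3297 genes lay between 10 and 100 RPKM and took 39.4%. The median level was 1.58 RPKM over all protein-coding genes and 5.92 RPKM over the expressed ones.

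**Figure D1:**
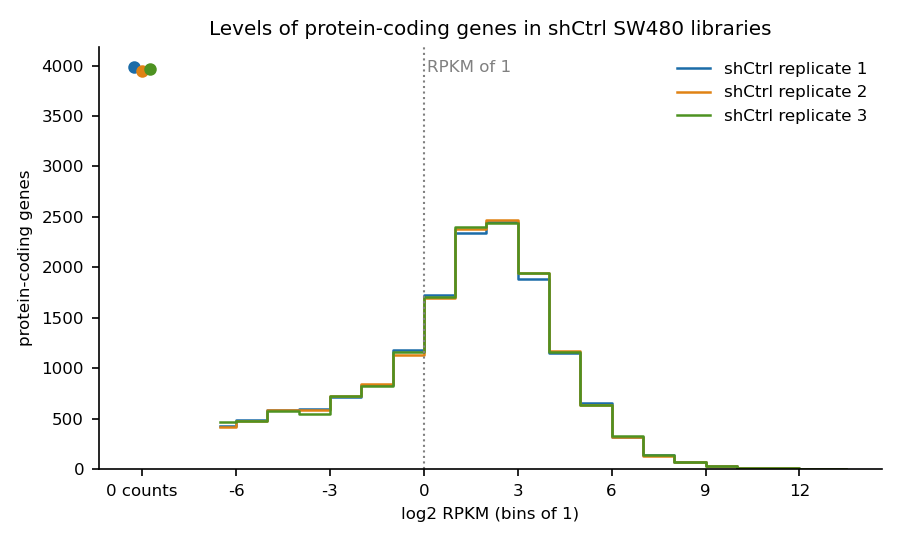
Number of protein-coding genes (vertical axis) by log2 RPKM in bins of 1 (horizontal axis) in each of the 3 shCtrl libraries, drawn as lines. The 3 points at the left are the genes without a count in each library. The 3 lines lie almost on each other and peak to the right of an RPKM of 1.

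The promoters of 5 genes show sequences at both ends of this range. They run from 250 bases before to 50 bases after the annotated start and are given from RefSeq on GRCh38.p14. Capitals mark CG dinucleotides, which are dense in the promoters of most widely used genes. TMSB10 (chr2:84905406-84905705, plus strand) had the highest level of any nuclear protein-coding gene of at least 300 bases. SP5 (chr2:170715087-170715386, plus strand) is a Wnt target that was high in these cells. CD44 (chr11:35138921-35139220, plus strand) and SMAD4 (chr18:51029963-51030262, plus strand) had low levels behind promoters with many CG dinucleotides. AQP8 (chr16:25216697-25216996, plus strand), a water channel of mature colonocytes, was silent.
TMSB10: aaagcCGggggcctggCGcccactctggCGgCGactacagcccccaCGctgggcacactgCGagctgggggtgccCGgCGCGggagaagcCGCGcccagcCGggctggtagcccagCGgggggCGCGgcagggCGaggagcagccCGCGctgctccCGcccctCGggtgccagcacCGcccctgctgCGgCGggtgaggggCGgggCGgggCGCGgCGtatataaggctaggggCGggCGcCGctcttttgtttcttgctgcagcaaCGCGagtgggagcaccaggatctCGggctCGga
SP5: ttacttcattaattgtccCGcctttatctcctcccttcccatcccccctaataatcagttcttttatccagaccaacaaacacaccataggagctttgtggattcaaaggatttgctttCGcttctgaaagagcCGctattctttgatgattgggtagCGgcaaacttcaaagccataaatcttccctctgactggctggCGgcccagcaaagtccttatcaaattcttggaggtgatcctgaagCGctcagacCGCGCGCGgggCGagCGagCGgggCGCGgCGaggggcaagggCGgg
CD44: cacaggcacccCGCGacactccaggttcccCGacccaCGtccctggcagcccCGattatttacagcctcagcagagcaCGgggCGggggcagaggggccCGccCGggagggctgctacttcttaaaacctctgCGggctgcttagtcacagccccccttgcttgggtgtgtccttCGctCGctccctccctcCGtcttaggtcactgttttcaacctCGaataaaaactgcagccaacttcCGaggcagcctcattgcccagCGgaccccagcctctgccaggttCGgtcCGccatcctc
SMAD4: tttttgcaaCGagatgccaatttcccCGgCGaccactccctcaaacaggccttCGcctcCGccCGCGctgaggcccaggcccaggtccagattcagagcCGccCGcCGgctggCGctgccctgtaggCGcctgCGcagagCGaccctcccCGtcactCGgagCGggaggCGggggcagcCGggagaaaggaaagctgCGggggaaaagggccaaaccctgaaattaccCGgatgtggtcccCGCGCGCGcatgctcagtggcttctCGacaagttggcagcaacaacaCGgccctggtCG
AQP8: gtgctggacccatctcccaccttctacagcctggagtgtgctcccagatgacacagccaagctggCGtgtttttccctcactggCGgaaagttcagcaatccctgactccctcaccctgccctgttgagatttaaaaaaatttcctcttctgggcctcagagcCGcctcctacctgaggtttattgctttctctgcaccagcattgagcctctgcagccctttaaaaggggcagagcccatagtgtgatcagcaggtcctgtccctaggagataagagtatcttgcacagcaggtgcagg
The windows of TMSB10, SP5, CD44, SMAD4 and AQP8 held 35, 17, 18, 28 and 3 CG dinucleotides. The mean levels of these genes were 4593, 73.2, 0.263, 0.0749 and 0 RPKM in the same order.

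Across genes, CG-rich promoters became more frequent from the silent class upward. A promoter was counted as CG-rich when its observed number of CG over the number given by its C and G content was above 0.6. RefSeq promoters were at hand for 15238 genes, 77.7% of the protein-coding genes. As this is under the 80% set for such a check, the check on the RefSeq windows alone is void. Windows of the same span were therefore read from the reference genome for 99.99% of the genes. They lie around the start of the canonical GENCODE v44 transcript, which can differ from the RefSeq start. In these windows, 27.4% of the promoters of silent genes were CG-rich (Wilson 95% interval 25.9 to 29%, 875 of 3188), against 67.8% of all promoters. The share was 51.7% for genes under 1 RPKM, 86.3% from 1 to 10 RPKM, 90.9% from 10 to 100 RPKM and 92.7% (89.5 to 95%) at 100 RPKM or more. The last 2 intervals overlapped. Leaving out olfactory receptor, taste receptor, keratin-associated protein and beta-defensin genes moved the share among silent genes to 32%.

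Promoter motifs also differed between the classes. The letters TATAAA, searched on both strands, were in 22.3% of the promoters of silent genes, in 4.66% of those from 1 to 10 RPKM and in 11.4% of those at 100 RPKM or more, against 9.67% of all. The letters GGGCGG, the core of an SP1 site, were in 28% of the promoters of silent genes and in 61.6% of all. CCGGAA, the core of an ETS site, was in 7.31% of the promoters of silent genes, in 37.3% at 100 RPKM or more and in 22.8% of all. CCAAT changed little, from 33.6% to 41.7% over the 5 classes, with 36.1% in all. Such matches are letters in a window, and the binding of a factor was not measured.

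The highest levels belonged to mitochondrially encoded mRNAs. MT-ATP6, a subunit of ATP synthase, was at 19117, 18718 and 18078 RPKM, and MT-CO3, a subunit of cytochrome c oxidase, at 12689, 12867 and 12624 RPKM. The 13 mitochondrial mRNAs lay between 1739 and 18637 RPKM and held 11 of the first 12 places among protein-coding genes. All mitochondrially encoded genes together took 7.13 ± 0.201% of the counts (SD, n = 3). The 80 cytosolic ribosomal protein genes took 6.69 ± 0.122%, and 77 of them were expressed with a median of 169 RPKM. The 100 most abundant gene symbols took 25.9 ± 0.229% of the counts.

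Among nuclear genes, TMSB10 (thymosin beta 10, which binds actin monomers) was at 4584, 4486 and 4708 RPKM. It was followed by RPL36A-HNRNPH2, PTMA (prothymosin alpha), YBX1 (a nucleic acid binding protein), RPL23A and EEF2 (an elongation factor), at 2137, 1990, 1600, 1555 and 1380 RPKM. HSP90AB1 (a chaperone), RPL13A, HNRNPA1 (a splicing factor) and EEF1A1 (an elongation factor) lay between 1162 and 1335 RPKM. The order within this set depends on the length used. When the exons of the canonical transcript replaced all merged exons, 4 of the 10 genes stayed among the 10 highest, and KRT8 at 4044 RPKM was among those that entered. Many of these genes have near-identical pseudogenes, and their split of reads is uncertain. RPL36A-HNRNPH2 is a read-through annotation whose exons all lie in other genes, so its reads are shared.

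Many antisense and overlapping symbols had levels that cannot be told apart from those of their neighbours. The 5 highest non-coding symbols of at least 500 bases were MT-RNR2, MTATP6P1, AC010761.8, RP11-290D2.6 and CH507-513H4.5. MT-RNR2 is the large mitochondrial ribosomal RNA, and MTATP6P1, at 3258 RPKM, is a nuclear copy of mitochondrial sequence. RP11-290D2.6, at 1016 ± 22.6 RPKM (SD, n = 3), lies wholly on the opposite strand of TPT1 exons and had 11547 counts in replicate 1, against 13025 for TPT1. AC010761.8, at 2678 RPKM, shares 25.2% of its exon bases with RPL23A on the opposite strand and stood above it. Of 108 non-coding symbols covered to at least 95% by opposite-strand exons of a protein-coding gene of at least 10 RPKM, 97 passed as expressed, which is 89.8%. Their median level was 0.754 times that of the gene they face, and 46 of the 108 were at or above it. For 19 symbols covered on the same strand, the median ratio was 0.109. Of 9142 lncRNA symbols without such overlap, 3.69% were expressed. Strand is marked by the library kit, but the setting used in counting is not given in the sources used here, so levels of such symbols are uncertain.

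The epithelial character of the cells was examined next. Such genes do not tell SW480 from other epithelial lines, so they are no check of the name on the label. Of 22 genes of cell junctions and adhesion, 20 were expressed (90.9%, against 54.3% of all protein-coding genes), with a median of 12.1 RPKM. EPCAM, an epithelial adhesion molecule, was at 254, 240 and 239 RPKM, and DSP (desmoplakin, of desmosomes) at 138, 139 and 145 RPKM. CDH1, the E-cadherin of adherens junctions, was lower, at 15, 15.2 and 15 RPKM. CTNNA1, CTNND1 and JUP, of the catenin complex at its cytoplasmic side, were at 45.5, 29.8 and 18.9 RPKM. Among tight junction genes, CLDN1 had 18.2 RPKM, CLDN3 7.52, CLDN4 5.8, OCLN 2.26 and CLDN7 2.06, and CLDN2 had 2, 2 and 1 counts. With the exons of the canonical transcript alone, CLDN4 stood above CLDN3, at 16.1 against 7.52 RPKM, and CLDN7 above OCLN, at 3.33 against 2.47 RPKM. ST14, a membrane serine protease of epithelia, had 32.8, 32.5 and 26.2 RPKM, lowest in replicate 3.

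The simple-epithelial keratins dominated their family. KRT8 was at 1073, 1021 and 1052 RPKM, KRT18, with which it pairs, at 985, 922 and 949 RPKM, and KRT19 at 395, 370 and 390 RPKM. The values of KRT8 and KRT18 did not overlap, but 7.63% and 16.3% of their exon bases are shared on opposite strands, and on canonical length they stood at 4044 and 2168 RPKM. Of the 17 keratins listed, 9 were expressed (52.9%, against 54.3% of all protein-coding genes). KRT80, KRT7 and KRT23 were at 19.9, 15.9 and 13.4 RPKM, and on canonical length KRT7 stood above KRT80, at 40 against 22.4 RPKM. KRT20, a marker of differentiated colon epithelium, had 11, 5 and 3 counts, a mean of 0.174 RPKM. Keratins of stratified epithelia were mixed. KRT10, KRT17 and KRT15 were expressed, at 12.2, 4.68 and 2.73 RPKM, while KRT5 was at 0.547 RPKM, KRT14 at 0.126 RPKM and KRT1 at 0.0135 RPKM. On canonical length, KRT15 stood above KRT17, at 11.4 against 7.83 RPKM, and KRT5 was at 1.05 RPKM.

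Regulators of the epithelial state were mostly present. KLF5 was at 43.4, 43.6 and 41.9 RPKM, ESRP1, which directs epithelial splicing, at 19.8, 19.7 and 20.1 RPKM, and its paralogue ESRP2 at 8.9 RPKM. ELF3, EHF and OVOL2 lay between 4.48 and 8.4 RPKM. GRHL2, a regulator of epithelial junction genes, had 0, 2 and 0 counts, while its paralogue GRHL1 was at 1.5 RPKM. OVOL1 had 0, 0 and 1 counts, and TP63, of basal epithelia, was silent.

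Intestinal transcription factors were mixed, with 10 of 16 expressed (62.5%, near the 54.3% of all protein-coding genes). SOX9, a crypt factor, led at 69.8, 76.2 and 68.2 RPKM, followed by KLF5 and by FOXA2 at 40.2 ± 1.25 RPKM (SD, n = 3). The 3 values of SOX9, KLF5, FOXA2 and HNF4A did not overlap from each gene to the next. HNF4A, which drives enterocyte genes, was at 13.9, 14.5 and 14.5 RPKM and MYB at 9.73 RPKM. CDX2, the main factor of intestinal fate, was at 5.38, 5.71 and 5.39 RPKM. Its paralogue CDX1 had 1, 2 and 0 counts. GATA6 was at 0.828 RPKM, and GATA4 and FOXA1 were silent. CDX1 (chromosome 5, 150166778 to 150184558) lies between PDGFRB at 0.196 RPKM and SLC6A7 at 0.0193 RPKM. Farther out, CSF1R, CAMK2A and ARSI were also under 1 RPKM, while HMGXB3 was at 8.3 RPKM. A regional effect was not tested.

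Most markers of mature absorptive cells were not expressed. Of 20 genes 3 were expressed (15%, against 54.3% of all protein-coding genes), and 9 were silent, where 16.3% of all were. By TPM of at least 1, 5 were expressed. In bulk RNA, fewer cells of a type and less RNA per cell cannot be told apart. VIL1 (villin, of the brush border) was the highest, at 103, 105 and 105 RPKM, although 44% of its exon bases are shared with USP37 on the opposite strand. FABP1 was at 3.1 RPKM, or 15.3 RPKM on canonical length, and CA2 at 1.82 RPKM. The ion transporter SLC26A3, the water channel AQP8, the carbonic anhydrases CA1 and CA4, and CEACAM7, MS4A12, SI, FABP2 and GUCA2B had 0 counts in all libraries. For SLC26A3 this allows up to 0.015 RPKM. LGALS4 and CDH17, which remain on in many colon cancers, were at 0.109 and 0.723 RPKM.

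Of 20 secretory markers, 3 were expressed (15%, against 54.3% of all protein-coding genes) and 7 were silent, where 16.3% of all were. At 0.5 RPKM or by TPM, 5 were expressed. The silent ones included ATOH1, the factor that starts the secretory programme. TFF3, a goblet cell peptide, was at 16.7, 17 and 20 RPKM, and CHGB and SYP, of neuroendocrine granules, at 8.03 and 2.6 RPKM. CHGA, NEUROD1 and NEUROG3, of the same enteroendocrine lineage, were silent. MUC2, the main gut mucin, had 37, 21 and 35 counts (0.125 RPKM).

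Of 17 stem cell and crypt base genes, 13 were expressed (76.5%, against 54.3% of all protein-coding genes), with a median of 2.56 RPKM. ASCL2, a stem cell factor under Wnt control, was at 27.6, 30.7 and 29 RPKM. EPHB2 and EPHB3, receptors that place cells along the crypt, were at 13.9 and 6.57 RPKM, and SMOC2 was at 12.7 RPKM. LGR5, the best known stem cell receptor, was at 1.62, 1.89 and 1.74 RPKM. OLFM4 was silent, and the adhesion molecule CD44 had 55, 43 and 58 counts, a mean of 0.263 RPKM. CD44 (chromosome 11, 35138882 to 35232402) lies beside PDHX at 20.4 RPKM and SLC1A2 at 0.00412 RPKM.

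Some mesenchymal genes were present beside the epithelial ones, with 8 of 18 expressed (44.4%, under the 54.3% of all protein-coding genes). S100A4 was at 78.5, 74.4 and 83.2 RPKM and VIM (vimentin) at 42, 41.6 and 44.1 RPKM. Of the transcription factors of epithelial-mesenchymal transition, SNAI1 was at 5.66 RPKM, ZEB1 at 3.99 and SNAI2 at 2.3, while TWIST1 and TWIST2 were silent and ZEB2 had 20, 13 and 2 counts. CDH2, the N-cadherin, had 1, 0 and 0 counts, MMP2 was silent, and FN1 was at 5.89 RPKM.

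Markers of other cells were used to look for admixture. None of 8 endothelial and none of 6 erythroid genes were expressed, where 54.3% of all protein-coding genes were. PTPRC, CD3D, MS4A1 and TYROBP of leukocytes were silent. Of 12 leukocyte genes, CD68 alone was expressed, at 7.47 RPKM, with 85.8% of its exon bases shared with another symbol. Of 12 fibroblast and smooth muscle genes 3 were expressed, LUM at 1.68, TAGLN at 1.31 and DES at 1.24 RPKM. Their number was 0 at 2 RPKM, 5 on canonical length and 6 by TPM. COL1A1, ACTA2 and MYH11 of the list were at 0.592, 0.562 and 0.509 RPKM, and COL1A2, COL3A1 and DCN had at most 3 counts in a library. SYT1 (9.33 RPKM) and MAP2 (1.07 RPKM) of 9 neural genes, and SERPINA1 (15.4 RPKM) of 8 liver and kidney genes, were the other exceptions.

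**Figure D2:**
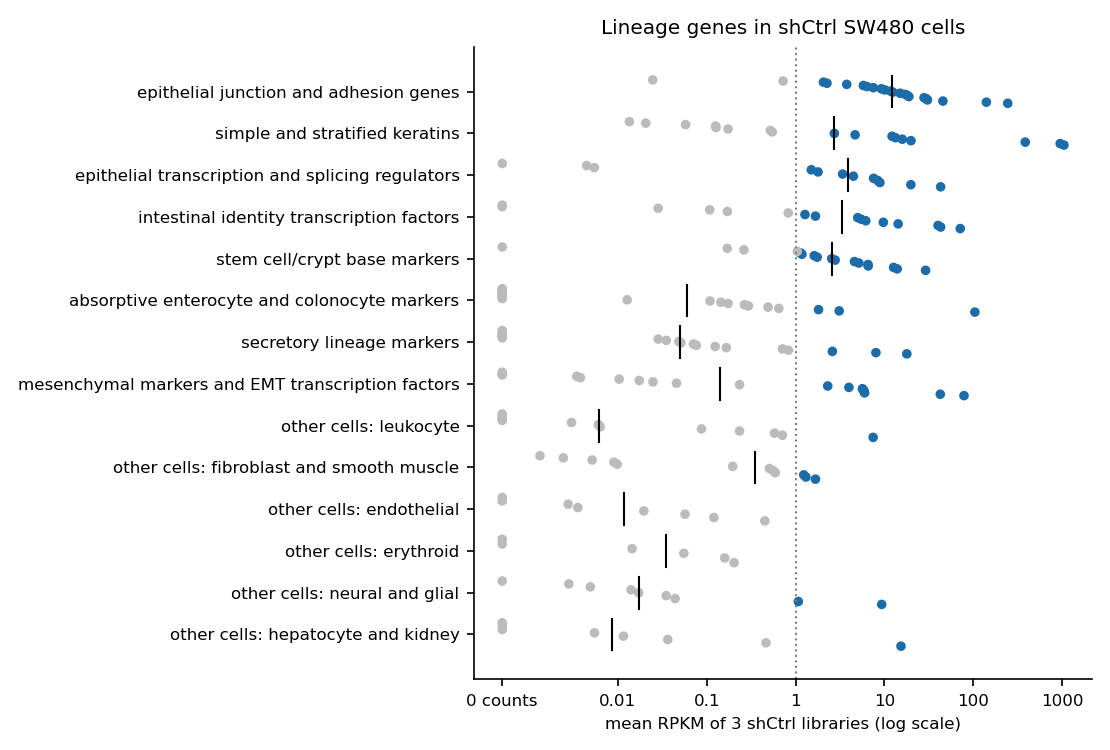
Mean RPKM of 3 shCtrl libraries on a log scale (horizontal axis) for each gene of 14 lineage lists (vertical axis), with genes without counts at the left. Blue points are genes expressed in each library, grey points are not, and black bars are list medians. Epithelial, intestinal factor and crypt lists have medians above an RPKM of 1, while the absorptive, secretory and mesenchymal lists and all lists of other cells have medians under it.

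Of 20 Wnt target and feedback genes, 14 were expressed (70%, against 54.3% of all protein-coding genes), with a median of 10.7 RPKM. NKD1, a feedback inhibitor of Wnt signalling, was at 229, 241 and 228 RPKM and was 136th among protein-coding genes. It was followed by MYC at 117, 127 and 115 RPKM, by NOTUM, a secreted enzyme that inactivates Wnt proteins, at 93.3, 98 and 93.3 RPKM, and by SP5 at 75.1, 74.4 and 70.1 RPKM. AXIN2, a feedback scaffold of the destruction complex, was at 57.3, 61.4 and 57.4 RPKM, and CCND1 (cyclin D1) at 51.3, 55.6 and 52.7 RPKM. The 3 values of each of these genes lay above those of the next. NKD2 and the ubiquitin ligases RNF43 and ZNRF3, which remove Wnt receptors, were at 39.9, 11.2 and 9.41 RPKM.

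Unlike NOTUM, the DKK genes, WIF1 and most SFRP genes of the same list were low. SFRP1 was silent, SFRP2 and WIF1 had 1 count each over the 3 libraries, DKK4 had 2, 0 and 0 counts, and DKK1 had 5, 8 and 10 counts. SFRP5 differed from them, at 6.11, 6.76 and 5.86 RPKM.

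Of 25 genes of the core of the pathway, 19 were expressed (76%, against 54.3% of all protein-coding genes). CTNNB1, which encodes beta-catenin, was at 35.7, 37.6 and 39.8 RPKM, the co-receptors LRP5 and LRP6 at 54.6 and 15.6 RPKM, and AXIN1 at 21.4 RPKM. APC was at 1.93, 2.05 and 1.89 RPKM, which does not show whether its product is intact. Of the TCF factors, TCF7L2 was at 11.9 RPKM, TCF7 at 6.82, TCF7L1 at 1.9 and LEF1 at 0.342. FZD6 (7.91 RPKM) and FZD5 (2.25 RPKM) were the Frizzled receptors expressed among the 6 listed.

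The promoter of SP5 printed above holds the letters CTTTGAT, a core to which TCF factors can bind. This motif, chosen with the levels known, was in 1.93% of all promoters and in 3.98% of those of silent genes, searched on both strands. It was found in 1 of the 9 Wnt target genes that had a RefSeq promoter, a number too small to compare.

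Of 17 genes of the RAS and ERK cascade, 16 were expressed (94.1%, against 54.3% of all protein-coding genes). HRAS was at 19, 19.1 and 17.3 RPKM and NRAS at 4.23, 4.17 and 4.5 RPKM, and the kinases MAP2K1, ARAF and BRAF were at 33.3, 14.7 and 1.76 RPKM. KSR1, a scaffold, was under the threshold at 0.934 RPKM.

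Of 20 feedback and output genes of ERK, 19 were expressed (95%, against 54.3% of all protein-coding genes), with a median of 10.7 RPKM. PHLDA1 was at 126, 134 and 130 RPKM and IER3 at 91.2, 92.2 and 92.5 RPKM. The transcription factors EGR1, FOSL1 and ETV4 were at 41.2, 27.3 and 23.5 RPKM. DUSP6, the phosphatase that acts on ERK, was at 25.1, 25.5 and 26.2 RPKM, and the inhibitors SPRY2 and SPRY4 at 12.8 and 8.63 RPKM. SPRED3 was at 0.414 RPKM.

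Of 24 receptor tyrosine kinases, 13 were expressed, close to the share of all genes. EPHA2 was at 24.6, 24.2 and 24.2 RPKM, ERBB3 at 21, 22.4 and 22.2 RPKM and FGFR4 at 16.9, 17.3 and 17.3 RPKM. MET was at 9.98 and ERBB2 at 7.47 RPKM. EGFR, the receptor for EGF and the target of antibodies used against colon cancer, had 7, 8 and 2 counts, a mean of 0.0228 RPKM. EGFR (chromosome 7, 55019017 to 55211628) lies between SEC61G at 31.9 RPKM and LANCL2 at 3.04 RPKM. This went against the usual description of SW480, as said at the start.

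Among ligands, 9 of 19 were expressed (47.4%, near the 54.3% of all protein-coding genes). IGF2 was at 48.5, 43.3 and 47.6 RPKM, PDGFA at 31.4, FGF19, which binds FGFR4, at 27.6 and VEGFA at 16.9 RPKM. Ligands of EGFR were lower, with AREG at 4.5, TGFA at 3.99 and HBEGF at 1.32 RPKM, and EREG, BTC and EGF under 1.

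Of 23 TGF-beta and BMP pathway genes, 15 were expressed (65.2%, near the 54.3% of all protein-coding genes). Ligands and receptors were mixed. BMP2 was silent, and TGFB3, ACVR2A and TGFB2 were at 0.854, 0.327 and 0.206 RPKM. BMP4 was at 57.7, 59.9 and 59.3 RPKM, TGFB1 at 40.5, 36.8 and 38.9 RPKM, TGFBR2 at 7.96 and TGFBR1 at 2.05 RPKM. SMAD4, the shared partner of the pathway's signal transducers, had 19, 16 and 23 counts, a mean of 0.0749 ± 0.015 RPKM (SD, n = 3). SMAD2 was at 0.532, 0.586 and 0.58 RPKM, and SMAD3 at 6.11 RPKM. SMAD4 lies on chromosome 18 at 51028528 to 51085045. Of its neighbours, RP11-729L2.2 spans 50968019 to 51058144, which reaches into the span of SMAD4, and was at 0.725 RPKM. Whether reads of SMAD4 were counted for this symbol was not tested. ELAC1 was at 0.311, ME2 at 2.11, MEX3C at 3.15 and MBD2 at 8.07 RPKM, while DCC was silent. SMAD2 has long merged exons, and 378, 431 and 410 counts.

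**Figure D3:**
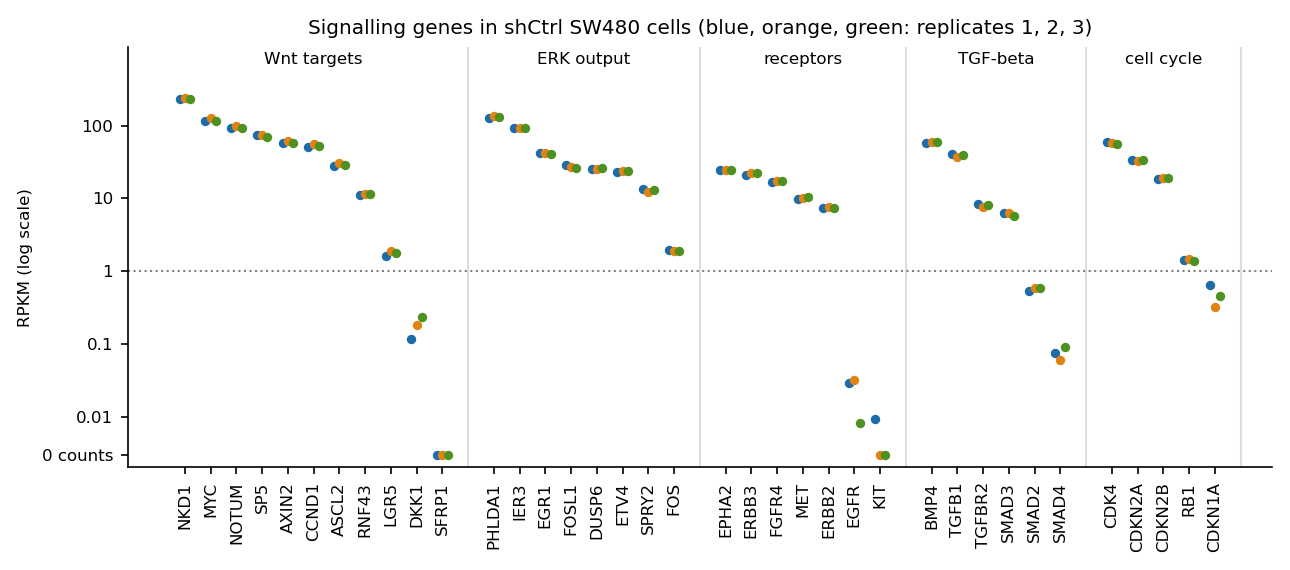
RPKM on a log scale (vertical axis) of genes of 5 groups (horizontal axis) in shCtrl replicates 1, 2 and 3, drawn in blue, orange and green, with libraries without counts at the bottom. Wnt targets from NKD1 to CCND1 lie above 50 RPKM in each library, whereas EGFR, SMAD4, DKK1 and CDKN1A lie under 1 RPKM.

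The cell cycle genes of G1 were expressed in 20 of 21 cases (95.2%, against 54.3% of all protein-coding genes). CDK4 was at 59.6, 58.2 and 56.5 RPKM and CDK2 at 32.1 RPKM. The inhibitors CDKN2A and CDKN2B, which are often deleted or methylated in cancer, were at 33.3 ± 0.615 and 18.8 ± 0.603 RPKM (SD, n = 3). CDKN1A, which encodes the inhibitor p21, was the only one under the threshold, with 38, 20 and 27 counts and 0.473 RPKM. RB1 was at 1.41 RPKM. CDKN2C was at 2.61, 3.81 and 3.89 RPKM and CDKN1C at 2.65, 2.06 and 3.22 RPKM, and both varied beyond counting error in the test described with the spread of the libraries.

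The MYC network had 11 of 13 genes expressed (84.6%, against 54.3% of all protein-coding genes). MAX, the partner of MYC, was at 37.8 RPKM, and the antagonists MXD3 and MNT were at 19 and 5.28 RPKM. MYCN was at 0.363 RPKM.

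All 17 genes listed for PI3K and mTOR signalling were expressed, where 54.3% of all protein-coding genes were. The median of the 17 was 3.47 RPKM, from PIK3CD at 1.26 to PIK3R2 at 25.5 RPKM. All 9 mismatch repair genes were expressed, among them MSH6 at 15, MSH3 at 5.52 and PMS2 at 3.74 RPKM. DKC1, of the telomerase complex, was at 156, 154 and 150 RPKM, whereas TERT, its catalytic subunit, had 22, 31 and 23 counts (0.277 RPKM). Of the cancer-testis genes in the same list, none had more than 1 count in a library. The list does not hold all such genes. MAGEB2, outside it and named after its values were seen, had 34, 41 and 36 counts (1.16 RPKM). Of 31 MAGE genes, 22 were silent (71%, against 16.3% of all protein-coding genes).

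Of 16 antigen presentation genes 9 were expressed (56.2%, near the 54.3% of all protein-coding genes). Of class I, HLA-C was at 148, 142 and 143 RPKM, while HLA-B was at 18.8, 18.5 and 18 RPKM. B2M, the light chain of class I, was at 15.7 RPKM on merged exons and at 102 RPKM on its canonical length. HLA-DRA and HLA-DRB1 of class II were silent, and CIITA, their activator, was at 0.414 RPKM. NLRC5, the activator of class I genes, was at 0.0832 RPKM, and the immunoproteasome subunits PSMB8 and PSMB9 were at 6.75 and 0.715 RPKM. Reads of the polymorphic HLA genes can be shared or lost in mapping, which makes their order uncertain. CD274, which encodes PD-L1, was at 0.157 RPKM.

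Of 15 innate sensing and interferon genes in the table, 8 were expressed (53.3%, near the 54.3% of all protein-coding genes). ISG15 was at 62.6, 63.5 and 59.2 RPKM, IRF3 at 21.2 and MAVS at 8.78 RPKM. The sensor DDX58 and TMEM173, the older symbol of STING, were at 0.555 and 0.543 RPKM, and IFNB1 was silent.

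Of 16 genes tied to colorectal cancer drugs, 10 were expressed (62.5%, near the 54.3% of all protein-coding genes). TOP1, the target of irinotecan, was at 140, 139 and 142 RPKM, TYMS, the target of fluorouracil, at 42.3, 42.6 and 42.3 RPKM, and BCL2L1 at 52.4 RPKM. DPYD, which breaks down fluorouracil, was at 0.674 RPKM. ABCB1, a drug efflux pump, was at 8.72 RPKM and ABCG2 at 0.0524 RPKM.

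All 10 genes listed here for the study were expressed, where 54.3% of all protein-coding genes were. The list is a choice made here. It includes RBM23, and it leaves out TWIST1 and CDH2, which the study measured and which were not expressed in these libraries. RBM39, a splicing factor, was at 48.4, 49.9 and 48.3 RPKM, which put it 775th among protein-coding genes. CDK5RAP2, a centrosomal protein, was at 24.9, 25.9 and 26 RPKM. MORC2, a chromatin protein, and PHF8, a histone demethylase, were at 9.31 ± 0.318 and 7.07 ± 0.197 RPKM (SD, n = 3). MARK2, OBSL1, FRMD8 and ZNF35 lay between 1.84 and 11 RPKM, and RBM23, a paralogue of RBM39, was at 5.35 RPKM. SNAI2, which encodes Slug, was at 2.47, 2.23 and 2.21 RPKM.

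HOX genes lie in 4 clusters, along which their order follows position along the body. Of 39 genes 28 were expressed (71.8%, against 54.3% of all protein-coding genes) and HOXB1 alone was silent. HOXB6 shares 32.9% of its exon bases with other symbols, while HOXB7, HOXB8 and HOXB9 share none. HOXA7, HOXC5, HOXD3 and HOXD4 share 59.9 to 80.5%, so the levels of such genes are uncertain. The HOXB cluster held the highest levels, with HOXB6 at 43.8, 45.1 and 46.5 RPKM, HOXB7 at 38.7, 41.2 and 38.5 RPKM, HOXB9 at 22.9 and HOXB8 at 14.1 RPKM. HOXC10 was at 28.6, 28.5 and 28.2 RPKM, and HOXA9 and HOXD9 led their clusters at 12.2 and 10.4 RPKM. In the HOXD cluster 4 of 9 genes were expressed, with a median of 0.724 RPKM, against 7 of 10 and 8.54 RPKM in HOXB. The genes of group 13, which mark the most posterior parts, were low in HOXA13 (0.351 RPKM), HOXD13 (0.724 RPKM) and HOXB13 (1.05 RPKM), and higher in HOXC13 (5.84 RPKM).

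**Figure D4:**
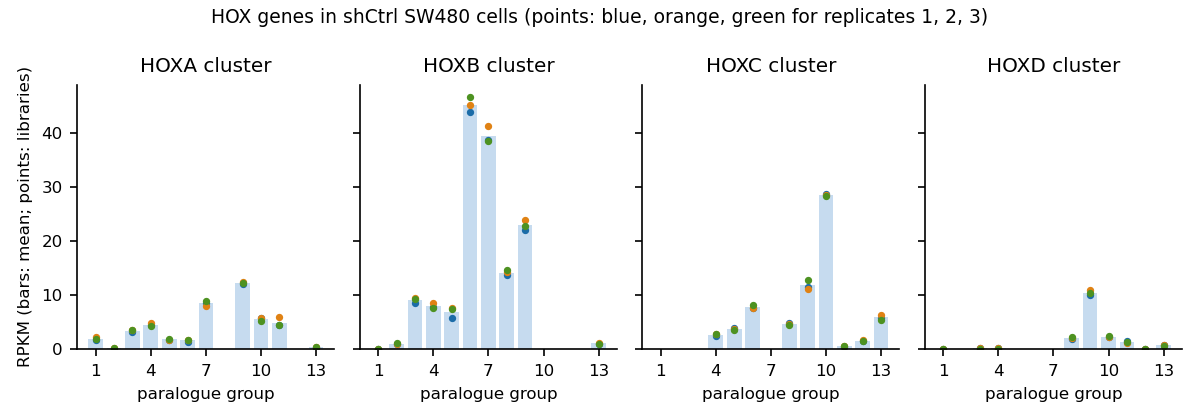
RPKM of HOX genes (vertical axis, linear) by paralogue group (horizontal axis) in the 4 clusters. Bars are means of the 3 shCtrl libraries and points are the libraries. The tallest bars are HOXB6, HOXB7 and HOXC10, and the HOXD cluster is low apart from HOXD9.

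Families used by other tissues held large shares of silent genes, although 2704 of the 3188 silent genes with a promoter window lie outside the olfactory receptor, taste receptor, keratin-associated protein and beta-defensin genes. Of 413 olfactory receptors 372 were silent (90.1%, against 16.3% of all protein-coding genes) and 1 was expressed. Of 36 beta-defensins 34 were silent. Of 94 keratin-associated proteins of hair 66 were silent and 2 were expressed. KRTAP3-2, named after its values were seen, was at 57.8, 63.7 and 66.1 RPKM. Chemokines were expressed in 2 of 41 cases and interleukins and their receptors in 4 of 45, led by IL23A at 14.7 RPKM, also named afterwards. At the other end, 36 of 39 proteasome subunits and 30 of 39 kinesins were expressed, where 54.3% of all protein-coding genes were. Solute carriers (138 of 332) and ZNF zinc finger genes (251 of 507) lay between. SLC1A5, a glutamine transporter named in the same way, was at 313, 317 and 304 RPKM.

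The spread among the 3 libraries was small. The biological coefficient of variation, edgeR's estimate of the relative spread left after counting error, was 0.0349, and Pearson's r of log2 CPM was 0.997 for each pair across 17523 genes, which are not independent replicates. Each pair differed by more than sampling noise, the chi-square over its degrees of freedom being 2.13 to 2.77, so none was counted as a repeat deposit of another. A goodness-of-fit test against counting error alone, with edgeR and Benjamini-Hochberg adjustment, called 808 of the 17523 tested genes at an adjusted p under 0.05, which is 4.61%. The power of this test grew with depth. It called 0.855% of genes from 1 to 10 CPM, 24.6% from 100 to 1000 CPM and 88.9% above 1000 CPM, where the median excess variation of the called genes was 3.01%. Against a negative binomial with the trended dispersion, which allows the usual spread of genes at that level, 32 genes were called. Without replicate 1, 2 or 3 the number of calls was 365, 373 or 568.

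Of 354 list genes tested, 28 varied beyond counting error, where 4.61% of all 17523 tested genes did. None of the 10 genes listed for the study was called. Against the negative binomial, ST14 alone of the 354 was called. The 28 include EPCAM, KRT8, KRT18, KRT19, MYC, NKD1 and AXIN2, whose coefficients of variation were 2.51 to 5.51%. Reference genes of RT-qPCR also stood among them, with 4 of 12 called. GAPDH varied by 1.29%, ACTB by 1.95%, RPLP0 by 2.98% and TUBB by 3.94%, so calls at high counts reflect small differences.

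Of the called genes with at least 10 CPM, the 10 with the largest excess variation included 6 non-coding RNAs. All 10 were also called against the negative binomial. They were picked from the same counts for their large spread, so this is not a separate check. CH507-513H4.5 and CH507-513H4.3, on the short arm of chromosome 21 where ribosomal RNA genes lie, were at 492, 1531 and 414 CPM and at 49.7, 136 and 40.8 CPM, high in replicate 2. RN7SL1 and RN7SL2, the RNA of the signal recognition particle, were high in the same library, at 12.8, 28.2 and 11 CPM and at 13.7, 25.9 and 8.9 CPM. RN7SK, a small nuclear RNA, was at 12.1, 13.6 and 7.76 CPM. RN7SL and RN7SK RNAs carry no long poly(A) tail, and a link of their share with library quality was not tested.

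Among protein-coding genes, GNB1, a G protein subunit, was at 690, 662 and 414 CPM and CDV3 at 254, 207 and 154 CPM, both lowest in replicate 3. ZMYND19 was at 55.8, 31.2 and 22.4 CPM and FAM107B at 25, 16.5 and 17 CPM, both highest in replicate 1. The remaining symbol, RP11-529K1.4, lies within exons of ST3GAL2. Each of the 808 called genes was assigned to the library farthest from its middle value, without a margin or a test. By this rule, replicate 1 was the farthest in 298 genes, replicate 2 in 324 and replicate 3 in 186. Replicate 1 was the high one in 242 of its genes, and replicate 2 the low one in 226 of its genes.

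**Figure D5:**
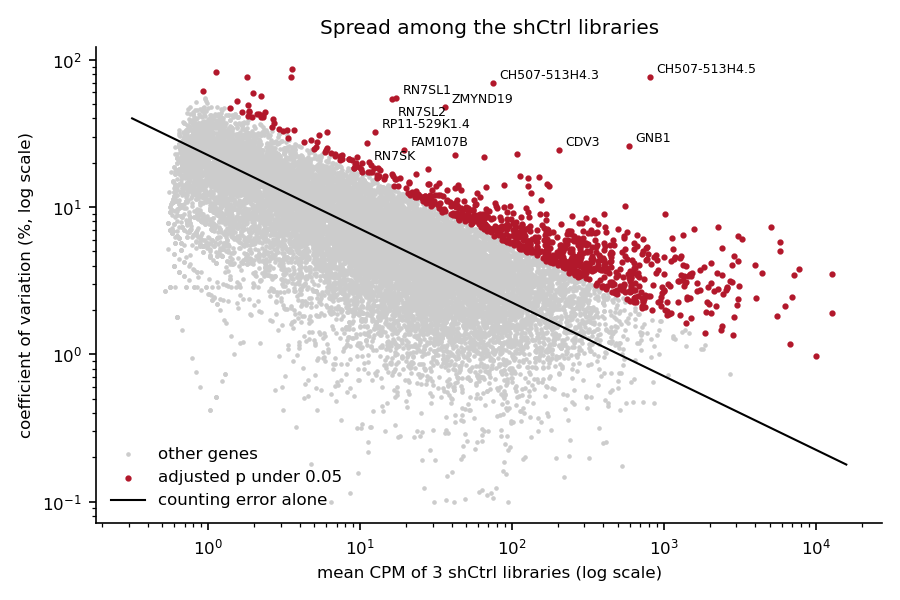
Coefficient of variation in percent (vertical axis, log scale) against mean CPM (horizontal axis, log scale) for 17523 genes over the 3 shCtrl libraries. Red points are the 808 genes called at an adjusted p under 0.05, grey points are the others, with values under 0.1% drawn at 0.1%, and the line is counting error alone. The 10 labelled genes lie above the cloud, led by CH507-513H4.5 and CH507-513H4.3.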

How the data were processed

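RNA-seq counts of 3 shCtrl SW480 samples were analysed, taken from the columns named NC, the only control of the series. Counts for each gene symbol and RPKM values were deposited by the authors. The submitters' processing notes name Trimmomatic 0.36, STAR 2.5.3a, featureCounts (Subread 1.5.1), edgeR 3.12.1 and GRCh38. The annotation release, strand setting, multi-mapping rule and collapsing of unique identifiers are not given in the sources used here, and these choices affect paralogs, overlapping genes and abundant genes most. The deposited RPKM values equalled RPKM recomputed from the counts to a relative difference of 5.4e-14. Symbols absent from the RPKM table had 0 counts. Symbols (56303) were matched to GENCODE v44 by symbol, identical exons or RefSeq synonym, which left 1385 unmatched with 99.2% of control counts matched. Y-linked genes and XIST were left out of the numbers of protein-coding genes and are not named.

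Levels are RPKM. CPM values carry TMM factors. Spread was tested with edgeR 4.0.16 (R 4.3.3) after filterByExpr, as deviance from a Poisson fit. On simulated counts of 17259 genes, extra variation was placed in 200 genes of at least 10 CPM, so recovery under 10 CPM was not simulated. Of these 200, 43% of those with a coefficient of variation of 0.1 and 87% with 0.3 were recovered. Unchanged genes were drawn as Poisson counts, the model tested against, and 0.041% of them were called. This rate does not cover genes with the usual spread between libraries. Overlaps used bedtools 2.31.1. The 32 lists, the families and the tests were chosen with earlier results of these data known. Genes were named by rule: all list members, HOX and mitochondrial genes, the 10 highest nuclear protein-coding genes of at least 300 bases, the 5 highest non-coding symbols of at least 500 bases and the 10 called genes of at least 10 CPM with the largest excess variation. Splicing tables and shRBM39 libraries were not used. Some list members are not reported here.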

Additional observations from a re-analysis of the deposited data

How the results depend on the processing

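The number of protein-coding genes expressed, that of protein-coding genes silent and that of expressed members over all lists together stayed within 1.5 times under every alternative tried. Thresholds of 0.5 or 2 RPKM gave 11799 and 8906 expressed genes, against 10642, and leaving out 1 replicate gave 10693 to 10734. Leaving out genes that share at least 50% of their exon bases with another symbol, an alternative chosen after seeing the data, gave 10018. Silent genes numbered 3471 to 3477 with 2 replicates and 4109 when 1 count was allowed.

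Genes varying beyond counting error depended on the model. An adjusted p under 0.01 gave 512 in place of 808, a negative binomial with the trended dispersion gave 32, and leaving out 1 replicate gave 365 to 568. The other scalings and filters gave 713 to 810. The biological coefficient of variation was 0.032 to 0.0367 when 1 replicate was left out. The share of counts in the 100 most abundant genes was 21.8% without mitochondrial genes, 44.6% as a share of summed RPKM and 25.8 to 26% when 1 replicate was left out. In the RefSeq windows, whose coverage makes the check void, a CG ratio over 0.75 gave 17.1% of silent promoters in place of 27%. Windows from the reference genome, added after seeing the data, gave 27.4% at a ratio over 0.6.

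With canonical transcripts, 345 of 560 named levels moved by more than 1 SD, and none did with TMM factors or without any 1 replicate. Of the 32 lists, the number of expressed members moved by more than 1.5 times in 2 at 0.5 RPKM (secretory, 3 to 5, and leukocyte, 1 to 2), in 2 at 2 RPKM (fibroblast and smooth muscle, 3 to 0, and neural, 2 to 1), in 1 on canonical length (fibroblast and smooth muscle, 3 to 5) and in 5 by TPM (absorptive and secretory, each 3 to 5, leukocyte and hepatocyte and kidney, each 1 to 2, and fibroblast and smooth muscle, 3 to 6). No paired analysis was possible because all values come from the shCtrl group and no test compares groups.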
